A study of Mus musculus with 6 samples.

Results

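Chemokine ligands and chemokine receptors were compared in stimulated CD4 T cells kept in low arginine or in control medium. The members were all genes whose symbol begins with Ccl, Cxcl, Xcl, Cx3cl, Ccr, Cxcr, Xcr, Cx3cr or Ackr followed by a digit, on probe sets that carry exactly 1 gene symbol, with the brightest probe set standing for its gene. This gave 56 of the 22180 genes so measured, 34 ligands and 22 receptors, the receptors including 4 atypical ones. All 56 symbols matched a RefSeq gene by its ID. A further 33 probe sets name a chemokine or receptor together with other genes and were not used.

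The low arginine group (3 arrays) was CD4 T cells of OT II transgenic mice, kept for 72 hours in RPMI-1640 with 10% dialyzed FBS and 1% of the normal arginine (12 uM), with ovalbumin peptide and antigen-presenting cells. The control group (3 arrays) was handled in the same way with complete RPMI-1640 and 10% dialyzed FBS. All mice carried the OT II transgene, a T cell receptor that recognises ovalbumin on MHC class II, and were 12 to 16 weeks old. The study names 6 mice and calls the arrays biological replicates, CD4 cells were purified again from each co-culture before RNA was taken, and fewer cells of a type cannot be told apart from less RNA per cell.

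Chemokines are small secreted proteins that guide cell movement. They fall into CC, CXC, XC and CX3C classes by the spacing of their first cysteines, and they act through receptors that couple to inhibitory G proteins. In CD4 T cells the receptor set follows the state of the cell: Ccr7 guides naive and central memory cells to the T zone of lymph nodes, Cxcr5 marks follicular helper cells, Cxcr3 marks Th1 cells, Ccr4 and Ccr8 mark Th2 and regulatory cells, and Ccr6 marks Th17 cells. Activated T cells also secrete chemokines themselves, mainly Ccl3, Ccl4, Ccl5, Xcl1 and Ccl1. Atypical receptors bind chemokines and remove them without G protein signalling.

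The members were called at a share near that of all genes tested, and a member that was not called may still have changed. Of 37 members above a mean level of 2.48 on the log2 scale, the limit under which the dimmest 7393 of the 22180 genes lie, 3 changed at an adjusted p below 0.05, all of them CC ligands that activated T cells secrete. Ccl3 and Ccl4 rose, by 1.53 and 1.30 on the log2 scale, and Ccl5 fell by 0.77. No receptor passed. The 3 members are 8.11% of the 37 tested, against 12.2% of all 14787 genes tested by the same limma fit, 5.19% being higher and 6.98% lower. The median change over the 37 members was 0.04, against 0.01 over all genes tested, and 29 of the 37 changed by less than 0.5.

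Above the limit were 21 of 34 ligands and 16 of 22 receptors. By class these were 13 of 19 CC ligands, 7 of 13 CXC ligands, the XC ligand Xcl1, 6 of 10 CC receptors, all 6 CXC receptors, Cx3cr1, Xcr1 and 2 of 4 atypical receptors. The CX3C ligand Cx3cl1 lay below it. Ccl7 at 2.47 and Cxcl15 at 2.45 were the members just under the limit, and Ccl24 at 2.50 and Ccl6 at 2.52 those just above it. The 19 members below the limit ran from 1.62 to 2.68 over all arrays and were not tested. They were the ligands Ccl7, Ccl8, Ccl12, Ccl17, Ccl22, Ccl26, Cxcl2, Cxcl3, Cxcl5, Cxcl9, Cxcl11, Cxcl15 and Cx3cl1 and the receptors Ccr1, Ccr1l1, Ccr3, Ccr10, Ackr1 and Ackr4. Without the filter on dim genes none of these 19 passed (lowest adjusted p = 0.204, Ccr1l1, the one member of the 19 at an unadjusted p below 0.05). No detection calls came with the values, so a member near the limit may be at background.

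Control replicate 1 stood apart from the other controls over the receptors. Its distance from the mean of the other controls was over 1 log2 unit for 5 of 16 receptors and 1 of 21 ligands, 16.2% of the members tested, against 3.37% of all genes tested. Ccr8 lay 2.11 above the other controls on that array, Ccr4 1.28 above and Ccl3 1.04 above. On the other side, Ccr7 differed from the other controls by -1.37, Cxcr4 by -1.24 and Cxcr5 by -1.03. Without that array 3325 genes (22.5%) passed in place of 1799, and values without it stand beside the genes on which it lies apart.

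The defining markers Cd3e and Cd4 were high on all arrays. Of the 8 measured CD4 T cell markers 1 passed by limma, Trat1, which rose by 2.93 (adjusted p = 6.02e-04). Cd3e had 10.94, 10.78 and 10.90 in low arginine, against 10.79, 10.72 and 10.80 in control medium, and Cd4 averaged 10.09 ± 0.18 in low arginine and 10.33 ± 0.12 in control medium (SD, n = 3 each). Markers of cells that the co-culture could leave behind were measured beside them. Of the 12 measured dendritic cell, macrophage and monocyte markers, 5 lay under the limit and 0 passed by limma (0 also at an unadjusted p below 0.05), and their summed linear level was 111 to 114 in low arginine, against 91.9 to 128 in control medium. Of 9 B cell markers 4 lay under the limit and 1, Ighm, fell, by 0.88 (adjusted p = 0.0108, and 0.412 with the mean of its probe sets, change -0.20), and the sum was 204 to 230 in low arginine, against 315 to 422 in control medium. Of 4 MHC class II genes 1 lay under the limit and 1, H2-Ab1, fell, by 3.06 (adjusted p = 6.02e-04), and the sum was 41.1 to 46.1 in low arginine, against 126 to 206 in control medium. The gap in the B cell sum lies in Ighm, and that in the MHC class II sum in H2-Ab1. The other tested B cell markers Cd79a, Cd79b, Cd22 and Pax5 changed by -0.02, 0.02, 0.05 and -0.22. H2-Eb1 and Ciita changed by 0.02 and -0.08, and none of these was called. Of the 3 tested plasma cell markers 1 fell, Xbp1, which activated T cells also express, and of the tested neutrophil (2), platelet (2) and stromal or endothelial (4) markers 0 passed by limma and 0 had an unadjusted p below 0.05. The part of such cells in the chemokine levels was not tested.

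The inflammatory CC chemokines Ccl3 and Ccl4, known as MIP-1 alpha and MIP-1 beta, draw in monocytes, dendritic cells and other T cells. Ccl3 had 4.68, 5.46 and 4.28 in low arginine, against 3.96, 2.78 and 3.08 in control medium. Ccl4 had 4.07, 5.22 and 4.48 in low arginine, against 3.36, 3.13 and 3.37 in control medium. Every low arginine array lay above every control array for both genes, and low arginine replicate 2 was the highest array for both.

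Ccl3 averaged 4.81 ± 0.60 in low arginine and 3.27 ± 0.62 in control medium (SD, n = 3 each), a 2.89-fold higher level (log2 change 1.53, SE 0.37, 95% interval 0.67 to 2.39, limma adjusted p = 0.0363). Ccl4 averaged 4.59 ± 0.58 in low arginine and 3.29 ± 0.13 in control medium, a 2.47-fold higher level (log2 change 1.30, SE 0.27, interval 0.68 to 1.92, limma adjusted p = 0.0211). Since the groups do not overlap, leaving out an array cannot turn either direction. The call of Ccl3 was lost when any array but control replicate 1 was left out (changes of 1.21 to 1.79, adjusted p = 0.059 to 0.133), and leaving out control replicate 1 gave a change of 1.88 (0.0053). The call of Ccl4 ended without low arginine replicate 3 (1.36, adjusted p = 0.0717) or control replicate 2 (1.23, 0.0916). Monocytes, macrophages and dendritic cells also make these chemokines, and the part of such cells in the levels of Ccl3 and Ccl4 was not tested.

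Ccl5, known as RANTES, is a chemokine that T cells and NK cells make late after activation. Ccl5 had 3.62, 3.72 and 3.18 in low arginine, against 4.04, 4.44 and 4.35 in control medium. Every low arginine array lay below every control array. The gene averaged 3.51 ± 0.29 in low arginine and 4.28 ± 0.21 in control medium (SD, n = 3 each), a level 0.585 times that of control medium (log2 change -0.77, SE 0.18, interval -1.18 to -0.37, limma adjusted p = 0.0299). Its call, too, was lost when any array but control replicate 1 was left out (changes of -0.88 to -0.61, adjusted p = 0.0652 to 0.117). Without control replicate 1 its change was -0.89 (adjusted p = 0.00934). Among 4 tested markers of CD8 and NK cells, which make much Ccl5, limma passed 0 (3 at an unadjusted p below 0.05), 3 of the 4 were lower on average and Eomes higher, and the summed level of the 6 measured markers was 133 to 172 in low arginine, against 156 to 206 in control medium. The part of such cells in the level of Ccl5 was not tested.

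Ccl5, Ccl9, Ccl6, Ccl3 and Ccl4 follow one another on chromosome 11 with no other protein-coding gene between them in the RefSeq annotation of GRCm38.p6. The changes along this stretch went in both directions. Between the genes at its ends, Ccl9 averaged 3.20 ± 0.17 in low arginine and 3.18 ± 0.19 in control medium, and Ccl6 averaged 2.53 ± 0.15 in low arginine and 2.51 ± 0.08 in control medium (SD, n = 3 each). Their log2 changes were 0.01 (95% interval -0.32 to 0.35) and 0.03 (-0.25 to 0.30), with signs that turned with the centring of the arrays. By chromosome, 12 of the 34 ligands were on chromosome 11 and 11 on chromosome 5, and 13 of the 22 receptors were on chromosome 9. Whether members adjoin one another was looked up only for the stretch from Ccl5 to Ccl4.

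No start region was held for Ccl4 and Ccl5, the other called members. The start regions of 3 members are printed because Ccl3 was called and the calls of Ccr8 and Cxcr4 turned on control replicate 1. Each runs from 250 bases before to 50 after the gene's start, in gene direction, from RefSeq (GRCm38.p6), for Ccl3 at chr11:83649329-83649628 (minus strand), Ccr8 at chr9:120091883-120092182 (plus strand) and Cxcr4 at chr1:128592250-128592549 (minus strand).
Ccl3: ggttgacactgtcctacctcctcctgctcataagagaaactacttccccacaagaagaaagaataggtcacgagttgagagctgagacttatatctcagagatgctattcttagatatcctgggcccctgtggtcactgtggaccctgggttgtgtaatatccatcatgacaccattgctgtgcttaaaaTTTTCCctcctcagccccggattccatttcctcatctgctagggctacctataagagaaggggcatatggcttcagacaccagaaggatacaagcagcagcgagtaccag
Ccr8: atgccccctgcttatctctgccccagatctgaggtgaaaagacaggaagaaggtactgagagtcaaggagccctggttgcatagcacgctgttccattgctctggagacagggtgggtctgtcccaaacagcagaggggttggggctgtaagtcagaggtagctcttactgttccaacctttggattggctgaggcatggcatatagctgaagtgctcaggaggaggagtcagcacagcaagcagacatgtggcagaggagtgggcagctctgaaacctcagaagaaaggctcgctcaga
Cxcr4: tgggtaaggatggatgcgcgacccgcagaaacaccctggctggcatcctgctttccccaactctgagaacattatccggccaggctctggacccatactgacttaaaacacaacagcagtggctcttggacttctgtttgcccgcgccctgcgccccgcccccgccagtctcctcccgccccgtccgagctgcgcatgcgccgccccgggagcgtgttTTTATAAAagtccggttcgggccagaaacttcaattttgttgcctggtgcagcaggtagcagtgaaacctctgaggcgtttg
Capitals mark matches, on either strand, to the 6 motifs searched: a TATA box (TATAAA), an AP-1 site (TGANTCA), an NFAT core (GGAAAA), the core of a cAMP response element (TGACGT), a C/EBP-ATF composite site (TGATGNAA) and a kappaB-like site (GGG, any 3 bases, then TTCC). The match in Ccl3 is the NFAT core on the other strand, whose first base lies at position -60 relative to the gene's start, and 23.4% of all 32851 such windows hold that motif. The capitals in Cxcr4 are overlapping TATA boxes on both strands, the one in gene direction beginning at position -30, a motif that 13.6% of windows hold. The window of Ccr8 holds none of these letters.

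**Figure D1:**
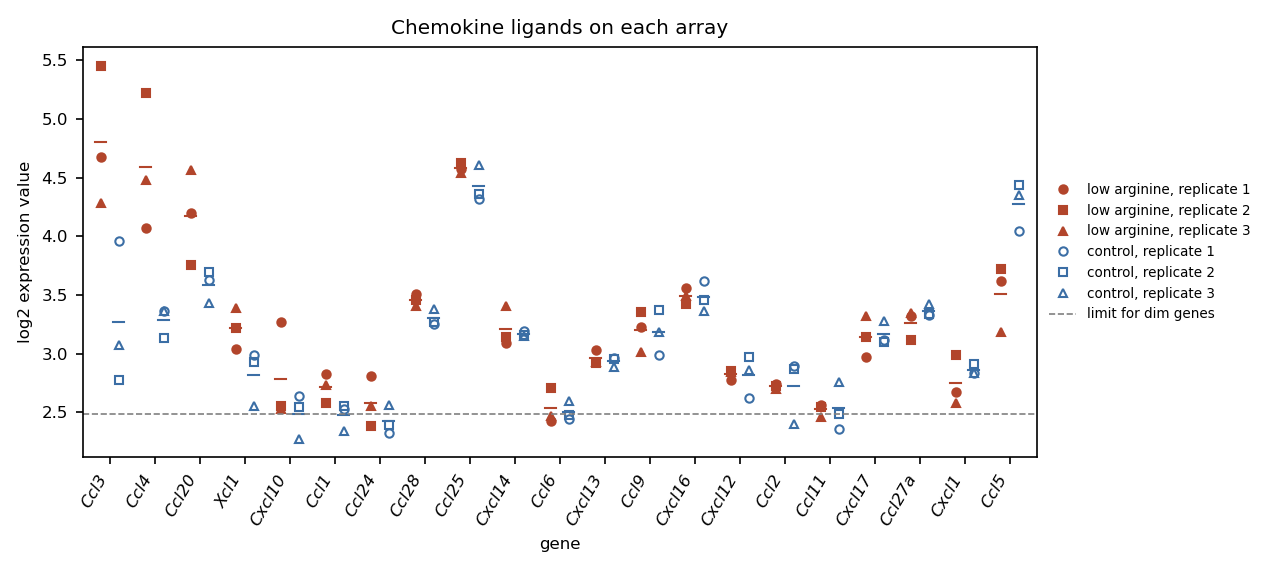
Log2 expression value (y axis) of the 21 chemokine ligands above the limit for dim genes (x axis, ordered by their change), with 3 low arginine arrays left (filled) and 3 control arrays right (open), replicates 1 to 3 by symbol, bars at the means and a dashed line at the limit of 2.48. Ccl3 and Ccl4 lie higher on all 3 low arginine arrays than on any control array, and Ccl5 lies lower.

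The other ligands of activated T cells were higher on average without passing. Ccl20, which draws Ccr6-bearing cells, had 4.20, 3.76 and 4.57 in low arginine, against 3.63, 3.70 and 3.43 in control medium. Xcl1, which draws cross-presenting dendritic cells, had 3.04, 3.22 and 3.39 in low arginine, against 2.99, 2.93 and 2.55 in control medium. Ccl1, the ligand of Ccr8, had 2.83, 2.58 and 2.74 in low arginine, against 2.53, 2.55 and 2.34 in control medium. In each of these genes the lowest low arginine array lay just above the highest control array.

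The log2 changes were 0.59 for Ccl20 (limma adjusted p = 0.104), 0.39 for Xcl1 (0.147) and 0.24 for Ccl1 (0.243). That of Ccl20 was 0.39 without low arginine replicate 3 (0.273), and that of Xcl1 was 0.26 without control replicate 3 (0.306). With array weights Xcl1 passed (change 0.32, adjusted p = 0.0483), but that fit called 37.3% of all genes, 18.8% higher. Cxcl10, an interferon-induced ligand of Cxcr3, averaged 2.78 ± 0.42 in low arginine and 2.49 ± 0.19 in control medium (SD, n = 3 each; adjusted p = 0.447), and only low arginine replicate 1, at 3.27, stood clear of the other arrays. Cxcl16, the membrane-bound ligand of Cxcr6, averaged 3.49 ± 0.07 in low arginine and 3.48 ± 0.13 in control medium (adjusted p = 0.968). The Ccr4 ligands Ccl17 and Ccl22, which dendritic cells make in quantity, lay under the limit. Ccl17 had 2.42, 2.11 and 2.15 in low arginine, against 2.26, 2.51 and 2.21 in control medium, and Ccl22 had 2.47, 2.68 and 2.36 in low arginine, against 2.60, 2.29 and 2.26 in control medium.

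The remaining ligands above the limit are mostly products of epithelium, stroma and myeloid cells. The mucosal chemokine Ccl28 had 3.51, 3.46 and 3.41 in low arginine, against 3.25, 3.27 and 3.38 in control medium, and was not called (change 0.16, adjusted p = 0.389). The thymic and intestinal chemokine Ccl25 averaged 4.58 ± 0.05 in low arginine and 4.43 ± 0.16 in control medium (adjusted p = 0.468). The neutrophil attractant Cxcl1 had the lowest change of the others, at -0.11 (adjusted p = 0.657), and the eosinophil attractant Ccl24 the highest, at 0.16 (0.543). Between them lay Ccl2, Ccl11, Ccl27a, Cxcl12, Cxcl13, Cxcl14 and Cxcl17. Over all 21 ligands 15 had a positive change, and the median was 0.03. That median was -0.03 with the arrays centred on their 75th percentile, so its sign turned with the scaling. The 2 probe sets of Ccl27a changed by -0.11 (the brighter) and 0.05.

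**Figure D2:**
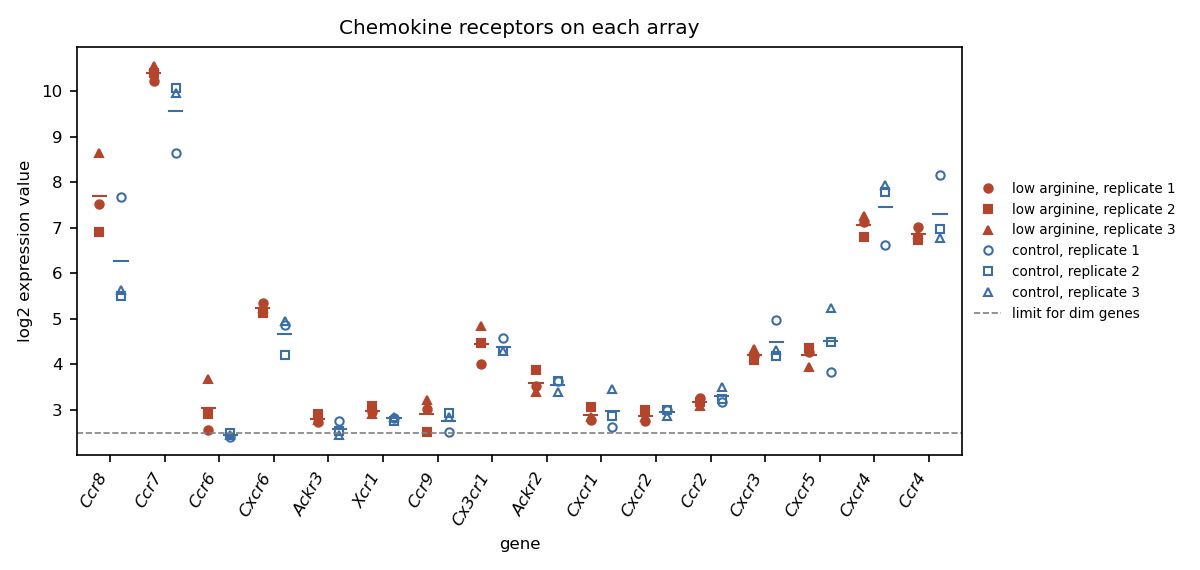
Log2 expression value (y axis) of the 16 chemokine receptors above the limit for dim genes (x axis, ordered by their change), drawn as for the ligands with low arginine left and control right. Control replicate 1 (open circle) lies over 1 log2 unit from the mean of the other controls for Ccr8, Ccr7, Cxcr4, Ccr4 and Cxcr5. Ccr6, Ccr7, Cxcr6 and Xcr1 are higher on all low arginine arrays than on any control array.

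By limma no receptor passed. At an unadjusted p below 0.05 there were 2, Cxcr6 and Ccr7, both higher in low arginine, where 27.3% of all genes lay below that p in either direction. With array weights 3 receptors were higher (Ccr8, Cxcr6 and Ackr3) and 1 lower (Cxcr4), but that fit called 37.3% of all genes, 18.8% higher and 18.5% lower. Without control replicate 1 there was 1 higher, Ccr8, and 1 lower, Cxcr4, against 11.0% of genes higher and 11.5% lower in that fit. The median SD within a group was 0.32 for the 16 receptors in control medium and 0.16 in low arginine, against 0.18 in control medium and 0.12 in low arginine over all genes tested.

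Ccr7, the receptor for lymph node entry, had 10.22, 10.41 and 10.57 in low arginine, against 8.66, 10.08 and 9.96 in control medium. Every low arginine array lay above every control array, by a small margin over control replicates 2 and 3 and by a large one over control replicate 1. Its log2 change was 0.83 (SE 0.35, 95% interval 0.02 to 1.65, limma adjusted p = 0.175), and 0.38 without control replicate 1 (adjusted p = 0.0824). Klf2, a transcription factor of naive T cells, and S1pr1, the receptor for lymph node exit, stood beside it. Klf2 had 6.97, 6.74 and 7.29 in low arginine, against 5.66, 6.40 and 6.57 in control medium, with control replicate 1 lowest, and was not called (change 0.79, adjusted p = 0.0839, and 0.52 without control replicate 1, 0.0656). With array weights, a fit that called 18.8% of all genes higher, Klf2 passed (0.59, adjusted p = 0.0151). S1pr1 averaged 8.60 ± 0.21 in low arginine and 6.67 ± 0.66 in control medium (SD, n = 3 each) and rose by 1.93 (limma adjusted p = 0.00958), with control replicate 1 lowest at 5.91, and by 1.55 without that array (5.55e-04).

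Ccr8, found on regulatory and Th2 cells, had 7.53, 6.91 and 8.65 in low arginine, against 7.69, 5.51 and 5.65 in control medium. Control replicate 1 lay among the low arginine arrays and the other controls lay below all of them. Its log2 change was 1.42 (SE 0.63, interval -0.06 to 2.89, limma adjusted p = 0.2), and 2.12 without control replicate 1 (adjusted p = 0.0118). It was 0.94 without low arginine replicate 3 (0.487). Foxp3, the factor that defines regulatory T cells, had 8.86, 8.71 and 9.97 in low arginine, against 7.59, 7.09 and 6.92 in control medium, and rose by 1.98 (limma adjusted p = 0.0117, and 0.0591 without control replicate 2, change 1.93). Low arginine replicate 3 was the highest array for both Ccr8 and Foxp3, and control replicate 1 the highest control for both.

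Ccr4, the other receptor of Th2 and regulatory cells, was not called either. It had 7.02, 6.74 and 6.87 in low arginine, against 8.16, 6.98 and 6.79 in control medium. The low arginine arrays overlapped with control replicates 2 and 3, and control replicate 1 was highest. The log2 change was -0.43 (interval -1.20 to 0.33, limma adjusted p = 0.471), and -0.01 without control replicate 1 (0.978). The Th2 genes Il4 and Gata3 were also highest on that array. Il4 had 2.98, 2.99 and 2.58 in low arginine, against 5.54, 3.04 and 3.38 in control medium, with a change of -1.14 (adjusted p = 0.261), and -0.36 without control replicate 1 (0.172). Gata3 had 7.86, 7.76 and 7.82 in low arginine, against 8.58, 7.48 and 7.64 in control medium, with a change of -0.09 (adjusted p = 0.883), and 0.25 without control replicate 1 (0.143). What set control replicate 1 apart was not tested.

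Among the CXC receptors, Cxcr4, which answers to Cxcl12 of stroma and bone marrow, had 7.12, 6.81 and 7.26 in low arginine, against 6.63, 7.78 and 7.95 in control medium. The low arginine arrays lay above control replicate 1 and below the other controls. Its log2 change was -0.39 (interval -1.15 to 0.37, limma adjusted p = 0.519), and -0.80 without control replicate 1 (adjusted p = 0.00978). It was -0.22 without control replicate 2 (0.802) and -0.14 without control replicate 3 (0.846). The B follicle receptor Cxcr5 had 4.27, 4.37 and 3.95 in low arginine, against 3.83, 4.50 and 5.24 in control medium, with a change of -0.32 (adjusted p = 0.589), and -0.67 without control replicate 1 (0.0726) and 0.03 without control replicate 3 (0.951). Bcl6, the factor of follicular helper cells, had 5.19, 5.50 and 5.02 in low arginine, against 3.00, 3.79 and 4.65 in control medium, and rose by 1.42 (adjusted p = 0.0462), and by 1.02 without control replicate 1 (0.0252). That call was lost when control replicate 2 or one of the low arginine arrays was left out (changes of 1.29 to 1.53, adjusted p = 0.112 to 0.16), and with no filter on dim genes (0.0584). In all, the call of Bcl6 was lost in 6 of 15 alternatives. Control replicate 1 was the lowest and control replicate 3 the highest control for both Cxcr5 and Bcl6.

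Cxcr6, a receptor of effector and tissue-resident T cells, had 5.36, 5.13 and 5.23 in low arginine, against 4.86, 4.20 and 4.96 in control medium. Every low arginine array lay above every control array, with control replicate 2 the lowest. It averaged 5.24 ± 0.11 in low arginine and 4.68 ± 0.41 in control medium (SD, n = 3 each), with a log2 change of 0.57 (interval 0.09 to 1.04, limma adjusted p = 0.117), which was 0.33 without control replicate 2 (adjusted p = 0.221) and 0.94 with array weights (0.00214). The Th1 receptor Cxcr3 had 4.20, 4.09 and 4.35 in low arginine, against 4.97, 4.19 and 4.32 in control medium, and its groups overlapped (change -0.28, adjusted p = 0.453, and -0.04 without control replicate 1). Tbx21, the Th1 factor that drives Cxcr3 in mice, had 5.30, 5.93 and 4.76 in low arginine, against 7.00, 6.39 and 6.21 in control medium, and fell by 1.20 (limma adjusted p = 0.0466). The call of Tbx21 was lost with each array left out in turn except low arginine replicate 2 (changes of -1.36 to -0.92, adjusted p = 0.0536 to 0.139), and with no filter on dim genes (0.0584).

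Ccr6, the receptor for Ccl20, had 2.55, 2.91 and 3.68 in low arginine, against 2.41, 2.50 and 2.45 in control medium. Every low arginine array lay above the controls, but control replicates 1 and 3 lay under the limit of 2.48, and low arginine replicate 3 made up much of the difference. The log2 change was 0.59 (limma adjusted p = 0.189), and 0.27 without low arginine replicate 3 (0.368). Low arginine replicate 3 was the highest array for its ligand Ccl20 as well. Xcr1, the receptor of Xcl1 on cross-presenting dendritic cells, had 2.96, 3.09 and 2.91 in low arginine, against 2.83, 2.76 and 2.86 in control medium, with a change of 0.17 (adjusted p = 0.351).

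None of the remaining receptors passed, and the groups overlapped for each of them. Ccr2, the receptor of inflammatory monocytes and some effector T cells, averaged 3.17 ± 0.08 in low arginine and 3.31 ± 0.18 in control medium (SD, n = 3 each; limma adjusted p = 0.567). The gut-homing receptor Ccr9 averaged 2.91 ± 0.36 in low arginine and 2.77 ± 0.22 in control medium (adjusted p = 0.706), and the fractalkine receptor Cx3cr1 averaged 4.44 ± 0.42 in low arginine and 4.38 ± 0.17 in control medium (0.901). The neutrophil receptors Cxcr1 and Cxcr2 changed by -0.08 (0.858) and -0.09 (0.686). Of the atypical receptors, Ackr3, which binds Cxcl12, changed by 0.22 (adjusted p = 0.296) and Ackr2, which binds inflammatory CC chemokines, by 0.04 (0.909). The interval of Ackr2 ran from -0.32 to 0.40. Ccr1, which binds Ccl3 and Ccl5, and the skin-homing receptor Ccr10 lay under the limit. Ccr1 ran from 1.81 to 2.12 in low arginine and from 1.93 to 2.09 in control medium, and Ccr10 from 2.41 to 2.55 in low arginine and from 2.21 to 2.65 in control medium.

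**Figure D3:**
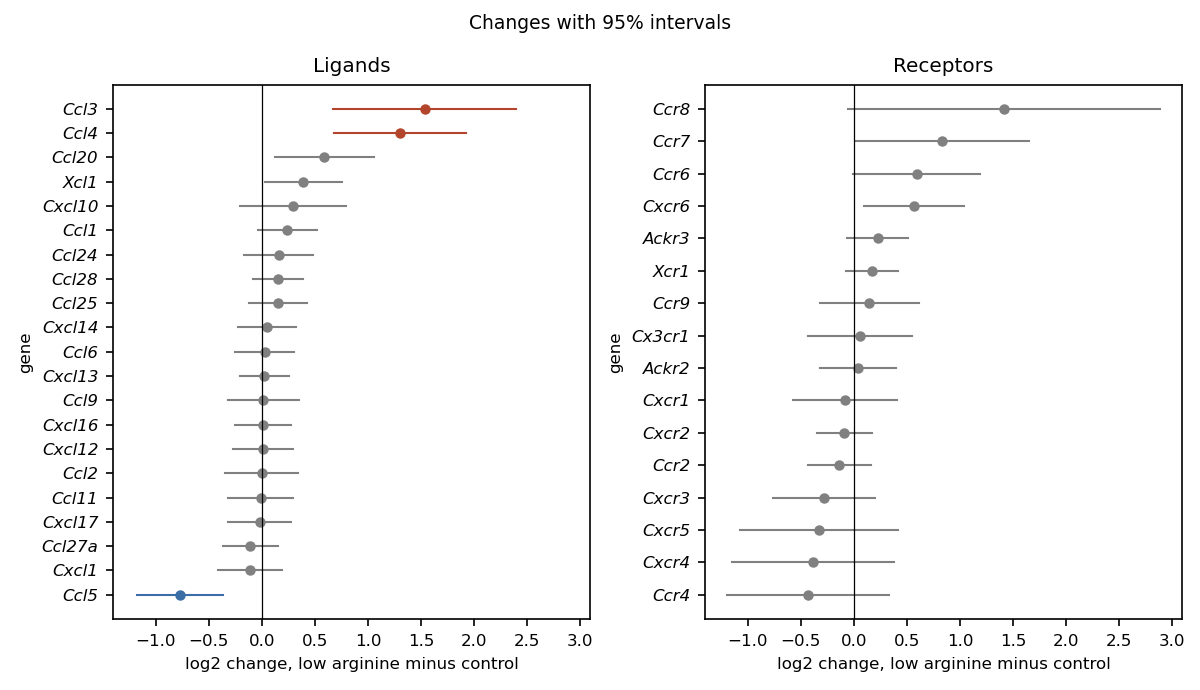
Log2 change, low arginine minus control (x axis), of the 37 tested members (y axis), ligands left and receptors right, with points at the estimate and lines for the 95% interval, red for higher and blue for lower at an adjusted p below 0.05 and grey for the rest. Ccl3, Ccl4 and Ccl5 are the coloured ones, and Ccr8 has the widest interval, from -0.06 to 2.89.

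The low arginine and control arrays did not overlap for 11 of the 37 members (29.7%), against 32.2% of all genes tested. Low arginine lay above for 10 of them (16.0% of all genes) and below for 1 (16.2%). The 10 were Ccl1, Ccl3, Ccl4, Ccl20, Ccl28, Xcl1, Ccr6, Ccr7, Cxcr6 and Xcr1, and the 1 was Ccl5. Of these, Ccl1 and Ccr6 had a control mean under the limit of 2.48 and were tested only because their low arginine level was higher, so they had to lean this way, as did Ccl24, whose groups overlapped. The share over both directions lies near that of all genes.

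**Figure D4:**
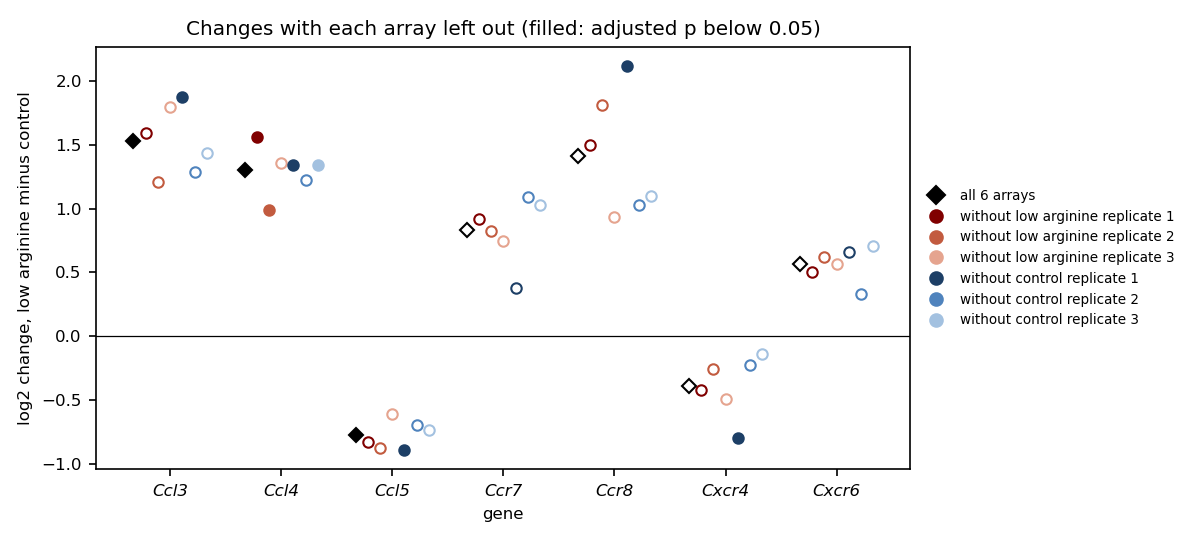
Log2 change, low arginine minus control (y axis), of 7 members (x axis) with all 6 arrays (diamond) and with each array left out in turn (circles, red shades for low arginine and blue for control arrays), filled where the adjusted p is below 0.05. No change turns its sign, which only Ccr8 and Cxcr4 could do, as the groups of the others do not overlap. Ccl4 keeps its call in 4 of 6 cases, and Ccr8 and Cxcr4 are filled only without control replicate 1.

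Genes that carry the signal of the receptors, or shut it off, were called at about the share of all genes. Of 48 tested genes of G proteins, migration effectors, receptor kinases, arrestins and RGS proteins, 2 rose and 5 fell (14.6%, against 12.2% of all genes tested; median change -0.13, against 0.01). Arrb1, an arrestin that uncouples and internalises receptors, had 5.66, 5.88 and 5.90 in low arginine, against 7.60, 8.69 and 8.58 in control medium. It fell by 2.48 on the log2 scale (SE 0.27, limma adjusted p = 0.00311), by 2.83 without control replicate 1 (3.78e-05), and passed in every alternative tried. The other listed arrestin, Arrb2, averaged 7.44 in low arginine and 7.62 in control medium and was not called (change -0.18, limma adjusted p = 0.39). Rgs16, which shortens G protein signals of chemokine receptors, had 6.71, 7.38 and 7.68 in low arginine, against 5.03, 5.24 and 6.09 in control medium, and rose by 1.80 (adjusted p = 0.0142). The groups did not overlap for Arrb1 or for Rgs16, and these genes moved in opposite directions.

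Gna13, a G protein subunit that restrains migration, fell by 0.91 (limma adjusted p = 0.00544), and Rgs3 fell by 0.56 (0.0267). Dock2, the Rac activator that T cells need to migrate, averaged 9.13 ± 0.10 in low arginine and 8.59 ± 0.08 in control medium (SD, n = 3 each) and rose by 0.53 (limma adjusted p = 0.021). The other falls, named after their values were seen, were Gnai2, the main inhibitory G protein of lymphocytes, by 0.37 (adjusted p = 0.0452) and the receptor kinase Grk5 by 0.50 (0.0258). The calls of Rgs3, Gnai2 and Grk5 were lost when control replicate 2 or one of the low arginine arrays was left out (adjusted p = 0.0825 to 0.14), those of Rgs3 and Gnai2 also without control replicate 3 (0.0629 and 0.0827), and that of Gnai2 under quantile normalization (0.0649). The call of Dock2 was lost in these 4 cases as well (0.0704 to 0.0882), and that of Rgs16 when low arginine replicate 2, low arginine replicate 3 or control replicate 2 was left out (0.0629 to 0.0702). In all, the call of Gnai2 was lost in 7 of 15 alternatives and that of Grk5 in 5. Without control replicate 1 there were 3 rises and 11 falls among the 48, against 11.0% of all genes higher and 11.5% lower in that fit.

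**Figure D5:**
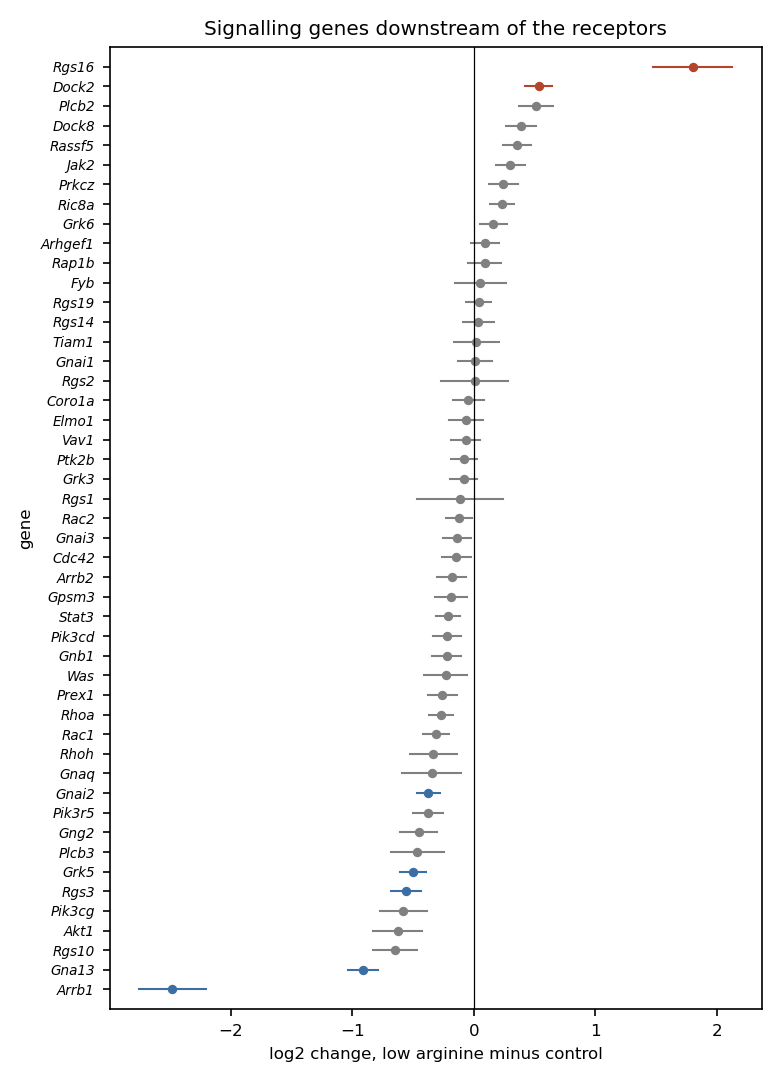
Log2 change, low arginine minus control (x axis), of the 48 tested signalling genes (y axis), with points at the estimate and lines for 1 standard error either side, red for higher and blue for lower at an adjusted p below 0.05. Arrb1 at -2.48 and Rgs16 at 1.80 lie at the ends.

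Guidance molecules outside the naming rule were measured beside the members. Of 5 tested genes, 1 rose and 1 fell, against 12.2% of all genes tested called in either direction. Gpr183, an oxysterol receptor that positions activated CD4 T cells at the edge of B follicles, had 8.03, 7.96 and 8.02 in low arginine, against 6.42, 6.74 and 7.03 in control medium, and rose by 1.28 (limma adjusted p = 0.00474). Mif, a cytokine that also binds Cxcr4, had 9.12, 9.05 and 9.05 in low arginine, against 9.96, 9.89 and 9.74 in control medium, and fell by 0.80 (adjusted p = 0.00578). Both passed in every alternative tried. The platelet chemokine genes Pf4 and Ppbp lay under the limit, and on control replicate 1 Ppbp read 3.63, against 2.06 to 2.17 on the other arrays of both groups.

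Of 12 tested T helper and homing factors 5 rose and 2 fell (58.3%, against 12.2% of all genes tested; median change 0.55, against 0.01). The list is short and was drawn up with earlier results of these data known. Besides Foxp3, S1pr1, Bcl6 and Tbx21, Prdm1, the factor of effector differentiation, had 4.68, 4.56 and 4.27 in low arginine, against 5.94, 5.57 and 6.07 in control medium, and fell by 1.36 (limma adjusted p = 0.00474). The other rises, named after their values were seen, were Foxo1, a factor that keeps Ccr7 on, by 0.57 (adjusted p = 0.0129) and Il17a by 1.19 (0.0197).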

How the data were processed

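The authors deposited 1 log2 expression value per probe set and array from 1-colour Affymetrix whole-transcript arrays, per the labels of biotin-labelled RNA. Per the submitters' processing notes the oligo package was used, and the sources used here do not state its version, background correction, normalization or log base. Base 2 was read from the range (0.956 to 12.4). Sorted values differed by at most 0.199 between arrays, and array medians lay between 2.97 and 3.03. Precision is limited by the number of arrays.

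Of 41345 probe sets, 23521 carried 1 symbol (22180 genes), 1814 several and 16010 none. The dimmest 7393 genes by mean level were left out and 14787 genes were tested by lmFit and eBayes of limma 3.58.1 under R 4.3.3 (group as the one term, two-sided, residual df 4 and prior df 3.69). The Benjamini-Hochberg adjustment ran over every gene tested, with a threshold of 0.05. Changes are low arginine minus control. The fit was also run on data simulated from its own variance model with no array standing apart, a check of the code and not of these arrays. Figures used matplotlib 3.10.9.

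Members, lists and alternatives were chosen with earlier results of these data known. Named were members that passed, 23 members with a known role in CD4 T cells, and the 3 largest called changes each way in each list. Markers were given as counts and sums of 2 to the power of the value. Alternatives were quantile normalization, median and 75th percentile centring, no filter or a stricter one (share left out 0.5), mean of probe sets, a trended and robust prior, array weights, the replicate block and each array left out. Labels share replicate numbers between groups but give no pairing, so the arrays were not paired in the fit. Deviations of same-numbered arrays correlated at 0.121, 0.0588 and 0.141, which cannot settle whether they were paired.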

Additional observations from a re-analysis of the deposited data

How the results depend on the processing

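Ccl3, Ccl4 and Ccl5 kept their calls under quantile normalization, both centrings, both filters, the mean of probe sets, the other prior and array weights. Their direction was the same in all 15 alternatives, most of which could not turn it. The filters, the mean of probe sets, the other prior and the block leave these estimates as they are. Groups that do not overlap keep their direction with an array left out. With an array left out, the counts ran from 0 to 2 for ligands higher, 0 to 1 for ligands lower, 0 to 1 for receptors higher, 0 to 1 for receptors lower, 0 to 3 for signalling genes higher, 2 to 11 for signalling genes lower and 500 to 3325 for all genes. With array weights these counts were 3 (ligands higher), 3 and 1 (receptors higher and lower), 7 and 18 (signalling genes higher and lower) and 5514 (all genes). With the replicate number as a block, 1 ligand was higher, since Ccl3 lay at an adjusted p of 0.0501, and 1568 genes passed. The correlation of deviations was under 0.1 for 1 pair, though each low arginine array correlated best with the control array of its own number, a hint from the data and not from the design, so the block is no part of the results above. The filters, the other prior and the block change no estimate of any gene, so under them only the call can differ. Of 667 values of named genes under alternatives, 581 kept direction and side, 52 lost the call, 8 gained it and 26 changed sign. The cause of these changes was not tested.

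Under quantile normalization Cxcl16, Cx3cr1, Ackr2 and Ccl9 changed by -0.0471, -0.0190, -0.0198 and -0.0292. With median centring Cxcl16, Ccl6 and Ccl9 changed by -0.0253, -0.0082 and -0.0214, and with 75th percentile centring Cxcl16, Ackr2, Ccl6 and Ccl9 by -0.0495, -0.0199, -0.0324 and -0.0456. With array weights Ccr9, Ccl9 and Gata3 changed by -0.0440, -0.13 and 0.27. With an array left out, Cxcl16 ran from -0.0481 to 0.0789, Ccr9 from -0.0016 to 0.35, Cxcr5 from -0.67 to 0.0333, Cx3cr1 from -0.14 to 0.28, Ackr2 from -0.10 to 0.14, Ccl6 from -0.0591 to 0.0829, Ccl9 from -0.0834 to 0.11 and Gata3 from -0.30 to 0.25. Signal over background could not be judged without detection calls.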

Other observations

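The start regions of the family were searched for the 6 motifs, as a description of letters only, with no test. RefSeq windows of 250 bases before to 50 after a gene's start were held for 42 of the 56 members (46 windows). Ccl4, Ccl5 and Ccr7 were not among these members, so the shares below leave them out. A TATA box was in 30.4% of the 46 windows, against 13.6% of all 32851 windows, and an AP-1 site in 17.4%, against 7.81%. The kappaB-like letters were in 19.6%, against 5.56%, in 7 of 26 ligand windows and 2 of 20 receptor windows. These included Ccl1, Ccl20, Cxcl1, Cxcl2, Cxcl3, Cxcl10 and Ccr6. Of these, Cxcl2 and Cxcl3 lay under the limit for dim genes and were not tested, and the others did not pass. The NFAT core was in 21.7%, against 23.4%, the cAMP response element core in 4.35%, against 7.51%, and the C/EBP-ATF composite site in 4.35%, against 3.97%. Windows of related genes share sequence and are not independent.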
